A study of Mus musculus with 8 samples.

Results

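The 4 Hox gene clusters of the mouse were examined in Sono-seq libraries of the hippocampus, as 4 windows on mm9 that together hold 38 named Hox genes. The windows were chromosome 6 from 52095000 to 52220000 (Hoxa, 125 kb), chromosome 11 from 96045000 to 96235000 (Hoxb, 190 kb), chromosome 15 from 102740000 to 102875000 (Hoxc, 135 kb) and chromosome 2 from 74480000 to 74615000 (Hoxd, 135 kb). Every deposited region that overlapped a window was taken, which gave 26 of the 11304 regions of the series. Of these, 7 lay in Hoxa, 4 in Hoxb, 5 in Hoxc and 10 in Hoxd. The windows were chosen by position, with counts and z scores of these libraries already known. A region is on the list only where 4 or more of the 8 libraries had a peak with a z score of 30 or more (its carriers), so peak height and carriers of the listed regions were selected on. Sono-seq reads the fragments of crosslinked, sonicated chromatin with no antibody step, and they gather where chromatin breaks easily. The animals of all 8 libraries were male C57BL/6J mice aged 2 months, housed singly and handled for 3 days. The 4 conditioned mice received a single foot shock (2 s, 1.5 mA) in a chamber and were dissected 30 min later. The 4 control mice had the same handling without training, with dissection at a matching hour. Each library holds whole hippocampal tissue, so fewer cells with open chromatin and less opening per cell cannot be told apart. The tissue label was not checked against marker genes, since no annotation of mm9 was used here.

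Hox genes encode homeodomain transcription factors that give cells their identity along the head-to-tail axis of the embryo. Within a cluster the genes lie in the order in which they are used along that axis, from genes of the hindbrain at one end to genes of the trunk, limbs and tail at the other. In the adult forebrain, which includes the hippocampus, most Hox genes are known to be silent, and Polycomb complexes cover large parts of the clusters in cells that do not express them. In the gene order of GRCm38.p6, the Hoxa window runs from Hoxa2, a gene of the hindbrain, to Hoxa13, a gene of the limb ends and the urogenital tract. The other windows run the opposite way with rising position. Hoxb starts with Hoxb13, known from prostate and tail, and ends with Hoxb1, a hindbrain gene. Hoxc starts with Hoxc13, known from hair and nails, and ends with Hoxc4. Hoxd starts with Hoxd13, a gene of digit formation, and ends with Hoxd1. The deposited positions are on mm9 and the gene table on GRCm38.p6, so no region was tied to a single gene. For the same reason the Hox cofactors of the Pbx and Meis families and the Polycomb genes were not analysed here.

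RefSeq start sites of GRCm38.p6 show how unlike the members of a cluster are in sequence. Of the 38 members, 22 had an entry in the promoter table, with 24 start sites. In the 250 bases before the start, these held 2 to 35 CG dinucleotides with a median of 12.5, against a median of 6 over the 32851 promoters of the table. CG-rich promoters are, as background, a common place of open chromatin. The following sequences are shown for that contrast. They are, among the members with an entry, the one with the most CG dinucleotides in each cluster and the start site with the fewest. In Hoxb only 3 of 10 members had an entry. Each sequence is 250 bases 5′ to 3′ on the gene's strand (minus for Hoxa13, plus for the others), with every CG in capitals.
Hoxa13: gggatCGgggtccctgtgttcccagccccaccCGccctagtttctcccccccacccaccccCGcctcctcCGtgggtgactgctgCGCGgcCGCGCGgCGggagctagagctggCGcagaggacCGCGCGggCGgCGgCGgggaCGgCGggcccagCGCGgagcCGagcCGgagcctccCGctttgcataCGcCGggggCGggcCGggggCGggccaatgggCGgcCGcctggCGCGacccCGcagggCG
Hoxb4: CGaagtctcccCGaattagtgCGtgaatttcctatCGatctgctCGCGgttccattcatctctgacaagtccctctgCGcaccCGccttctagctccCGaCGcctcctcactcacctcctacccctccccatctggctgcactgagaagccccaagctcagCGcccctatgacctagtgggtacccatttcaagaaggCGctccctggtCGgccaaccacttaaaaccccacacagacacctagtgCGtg
Hoxc4: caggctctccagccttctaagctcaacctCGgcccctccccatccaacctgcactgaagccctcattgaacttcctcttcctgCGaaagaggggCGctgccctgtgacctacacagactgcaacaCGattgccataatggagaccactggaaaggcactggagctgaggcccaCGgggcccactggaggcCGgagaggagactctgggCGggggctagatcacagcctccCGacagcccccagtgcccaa
Hoxd13: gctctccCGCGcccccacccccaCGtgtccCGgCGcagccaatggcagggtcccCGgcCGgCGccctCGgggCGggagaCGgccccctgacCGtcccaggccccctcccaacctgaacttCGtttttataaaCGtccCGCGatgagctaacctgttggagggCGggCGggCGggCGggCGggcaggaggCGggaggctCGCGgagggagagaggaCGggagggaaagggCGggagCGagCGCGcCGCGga
Hoxd11: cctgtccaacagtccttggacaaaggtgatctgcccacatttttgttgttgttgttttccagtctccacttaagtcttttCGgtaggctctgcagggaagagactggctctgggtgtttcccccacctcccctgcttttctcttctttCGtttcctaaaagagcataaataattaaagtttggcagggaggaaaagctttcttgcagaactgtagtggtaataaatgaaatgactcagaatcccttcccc
Hoxa13 held 35 CG dinucleotides at a GC content of 80.0%, a number reached by 2.97% of all promoters of the table. Hoxd13 followed with 31 (74.4% GC, reached by 5.19%). For Hoxb4, which acts in the embryonic hindbrain and in blood stem cells, the number was 14 (58.0% GC). Hoxc4, the only Hoxc gene with an entry, had 8 (62.0% GC), and 43.0% of all promoters had as many. The start site of Hoxd11, a limb and trunk gene, with the fewest had 2 (44.8% GC), whereas its other listed start site had 20. These sequences describe the genes, and no region or peak was placed on them.

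Regions were packed more densely in the Hox windows than along the autosomes as a whole. The windows held 44.4 regions per Mb. All 11304 regions of the list, divided by the 2415 Mb between the outermost listed peaks of the autosomes, gave 4.68 per Mb. Regions on other chromosomes, if any, were not taken out of that number. The windows had 9.50 times this density. In Hoxd the density was 74.1 per Mb, in Hoxa 56.0, in Hoxc 37.0 and in Hoxb 21.1. Autosomal stretches of the same length, laid end to end, held as many regions as the Hoxd window in 7 of 17880 cases (0.0391%). For Hoxa this was 28 of 19312 (0.145%), for Hoxc 154 of 17880 (0.861%) and for Hoxb 550 of 12702 (4.33%). These shares describe windows that were drawn around gene clusters with earlier results known.

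Along the clusters the regions were spaced unevenly. In Hoxd they ran from 13.1 to 121 kb from the window start, with a median of 9.47 kb between neighbours and a longest free stretch of 28.7 kb (from 26.9 to 55.6 kb). In Hoxa they ran from 19.1 to 115 kb, with the longest free stretch of 29.1 kb between 59.8 and 88.9 kb. In Hoxb the first 87.7 kb, on the side of Hoxb13, held no region, and the 4 regions lay between 87.7 and 169 kb. In Hoxc the free stretch of 53.7 kb lay at the other end, from 81.3 kb to the end of the window on the side of Hoxc4. Regions covered 6.24% of the Hoxd, 4.41% of the Hoxa, 2.46% of the Hoxc and 2.04% of the Hoxb window.

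**Figure D1:**
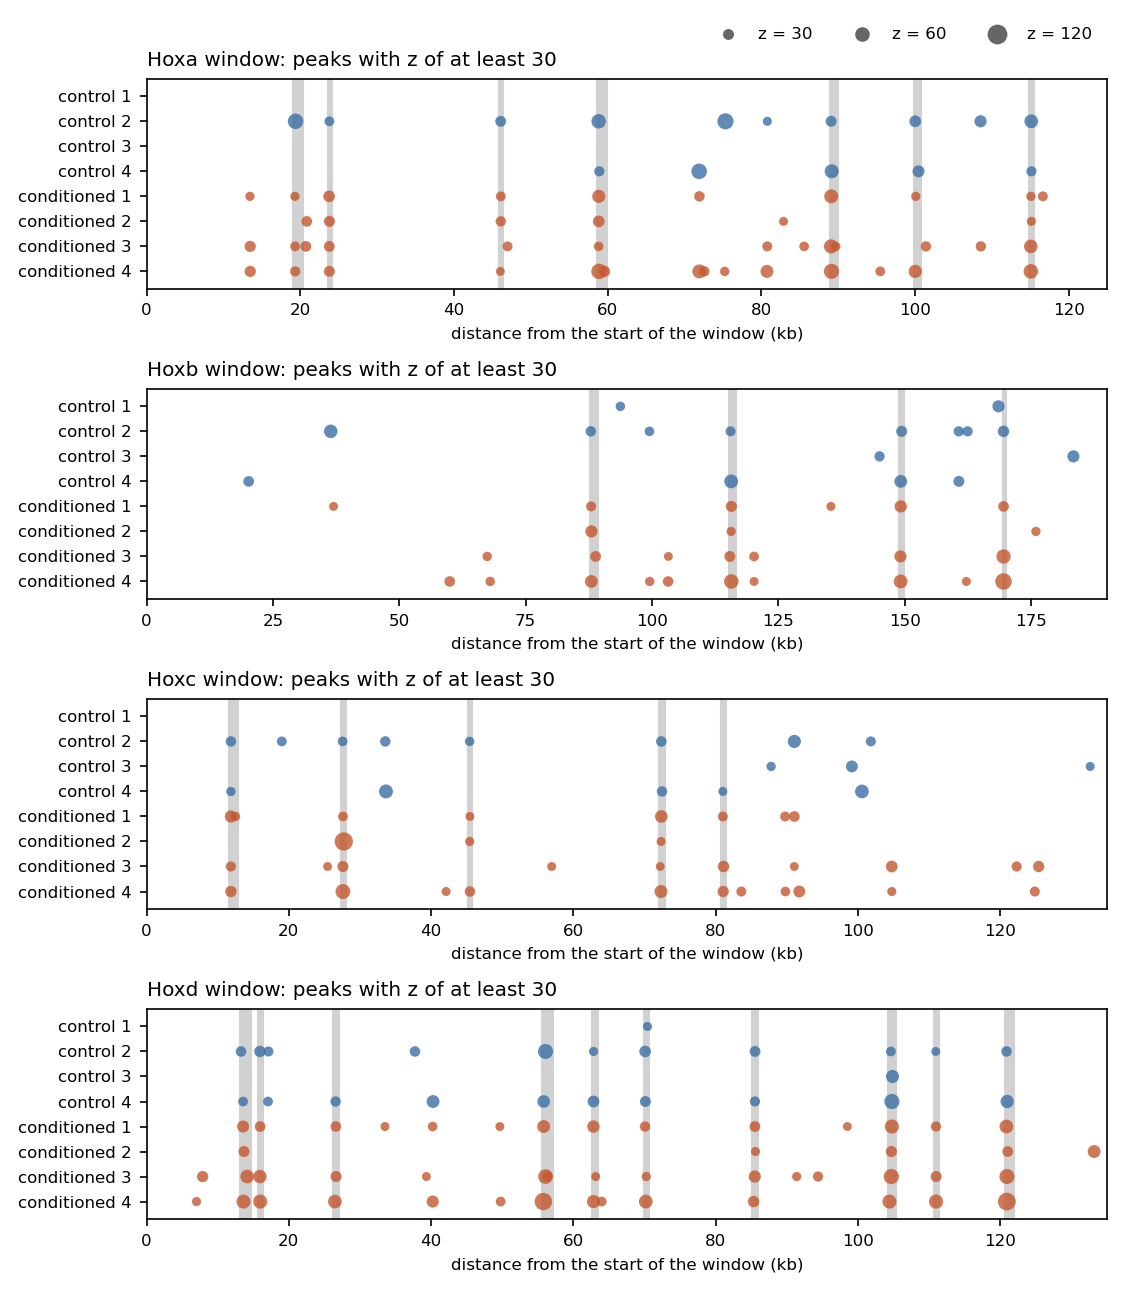
Strong peaks (z score of 30 or more) along each Hox window, with the distance from the window start in kb on the x axis and 1 row for each library (blue control, orange conditioned). Dot area grows with z and grey bands are deposited regions. Control replicates 1 and 3 have 3 and 6 such peaks in all, and the other 6 libraries 17 to 49, most of them stacked over the same regions.

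The Hox regions were weaker than most regions of the list. Their deposited mean z score ran from 34.8 to 74.6, and 17 of the 26 lay below the median of all regions; the median was 51.6 in the Hox windows and 58.9 over all regions. In normalised read counts (CPM, counts scaled by library size and TMM factor) 21 of 26 lay below the median, at 4.80 against 6.77 CPM. They were listed for few libraries. Of the 26, 9 had 4 carriers, 8 had 5, 8 had 6, 1 had 7 and 0 had 8, so that 65.4% had 4 or 5, against 47.1% of all regions. The region with 7 carriers lay in Hoxd at 104 kb (74584221 to 74585176). Spans ran from 445 to 1407 bp with a median of 722 bp, against 858 bp over all regions.

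Listed peaks of any height were about as frequent in the Hox windows as elsewhere, and strong peaks were more frequent in most libraries. For control replicates 1 to 4 the windows held 209, 226, 124 and 152 listed peaks, and for conditioned replicates 1 to 4 they held 207, 133, 275 and 270. Per Mb this was 0.958 to 1.45 times the autosomal average of the same library. At z of at least 30, the ratio to the library's own average was 0.948 and 1.25 in control replicates 1 and 3, 2.58 and 2.96 in control replicates 2 and 4, and 4.31, 2.65, 2.79 and 3.96 in conditioned replicates 1 to 4. Peaks covered 2.08% to 6.00% of the windows. Between 80.4% and 87.9% of the peaks of a library in the windows were single steps of 50 bp, against 75.1% to 81.3% over the whole lists.

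Strong peaks fell mostly into the regions, though the clusters differed. Over all libraries the windows held 219 peaks at z of at least 30, of which 135 (61.6%) overlapped a region, which follows in part from the list's own rule. The share was 76.1% in Hoxd (54 of 71), 62.1% in Hoxa (36 of 58), 52.1% in Hoxc (25 of 48) and 47.6% in Hoxb (20 of 42). The highest peak of a control was outside the regions in 3 of 4 libraries in Hoxa, 3 of 4 in Hoxb, 4 of 4 in Hoxc and 0 of 4 in Hoxd. In Hoxa, control replicate 2 had its highest peak (z 100) at 75.3 kb and control replicate 4 (z 92.5) at 71.9 kb, both single steps with no region. In Hoxc the controls' highest peaks had z scores of 25.3, 66.1, 54.4 and 74.7 at 85.0, 91.1, 99.1 and 33.7 kb in replicates 1 to 4. The conditioned libraries had theirs inside a region in Hoxa (4 of 4), Hoxb (4 of 4) and in 3 of 4 cases in Hoxc and in Hoxd. The list's rule bears on this contrast too, since 24 of the 26 regions had more conditioned than control carriers, as did 81.0% of all regions. How often it occurs in other parts of the genome was not tested. The highest peak of any library in the windows was that of conditioned replicate 2 in Hoxc at 27.7 kb (z 128).

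Some places missed the list by 1 library. Places outside the regions with a strong peak of 3 libraries within 500 bp, looked for after the values were seen, numbered 5. In Hoxa they lay at 13.5 kb (conditioned replicates 1, 3 and 4, z 33.2 to 48.7), at 71.9 kb (control replicate 4 and conditioned replicates 1 and 4, z 42.5 to 92.5) and at 80.7 kb (control replicate 2 and conditioned replicates 3 and 4, z 31.5 to 64.1). In Hoxc there was a place at 91.0 kb (control replicate 2 and conditioned replicates 1 and 3, z 30.1 to 66.1). In Hoxd, peaks of 650 to 850 bp stood at 40.2 kb in control replicate 4 and conditioned replicates 1 and 4 (z 35.6 to 63.8). Just inside the limit stood the 9 regions with 4 carriers. Their deposited mean z ran from 34.8 (Hoxc at 45.2 kb) to 69.2 (Hoxb at 169 kb).

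Library facts bear on every comparison below. Total counts over all regions ranged from 36786183 to 83233550, but the 50 regions with the most counts took most of them, and 2013469 to 14605841 counts remained outside these. Control replicates 1 and 3 had the fewest (2217162 and 2013469) and the lowest TMM factors (0.332 and 0.509, against 1.03 to 2.01 in the other 6 libraries). In the Hox regions the median count was 49.0 and 62.5 in these libraries and 236 to 832.5 in the others. The lowest count of any Hox region was 3, in control replicate 1 (Hoxa at 45.8 kb), and the highest 2508, in conditioned replicate 4 (Hoxd at 55.6 kb). Intervals below cover counting error only, because the reads carry no molecular identifiers and may repeat a molecule.

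Control replicates 1 and 3 carried few Hox regions also relative to their own other regions, but in read counts they differed from each other. Each of them carried 1 of the 26 Hox regions (3.85%), against 24.3% and 25.5% of all regions. Carriers were selected on, and 65.4% of the Hox regions had 4 or 5 carriers, against 47.1% of all regions. Regions of like carrier number were not compared, so these shares show no trait of the Hox regions beyond their few carriers. In control replicate 1 it was Hoxd at 69.9 kb (z 32.2), in control replicate 3 it was Hoxd at 104 kb (z 66.0). Control replicates 2 and 4 carried 24 and 17 of the 26, and conditioned replicates 1 to 4 carried 26, 13, 23 and 26. Weaker peaks were still listed there, in 21 of 26 regions for control replicate 1 and in 26 of 26 for each of the other 7 libraries. The median CPM of the Hox regions was 0.345 and 0.543 times the median of all regions in control replicates 1 and 3, and 0.651 to 0.905 times in the other 6 libraries. Control replicate 1 was the lowest library in 14 of 26 Hox regions (53.8%), against 29.1% of all regions. Control replicate 3 was the lowest in 4 of 26 (15.4%), close to its 16.4% of all regions. Its Hoxd regions held 8.57 of every 10000 counts outside the 50 highest regions, above the 6.28 to 7.75 of the conditioned libraries and second to control replicate 4 (8.83).

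**Figure D2:**
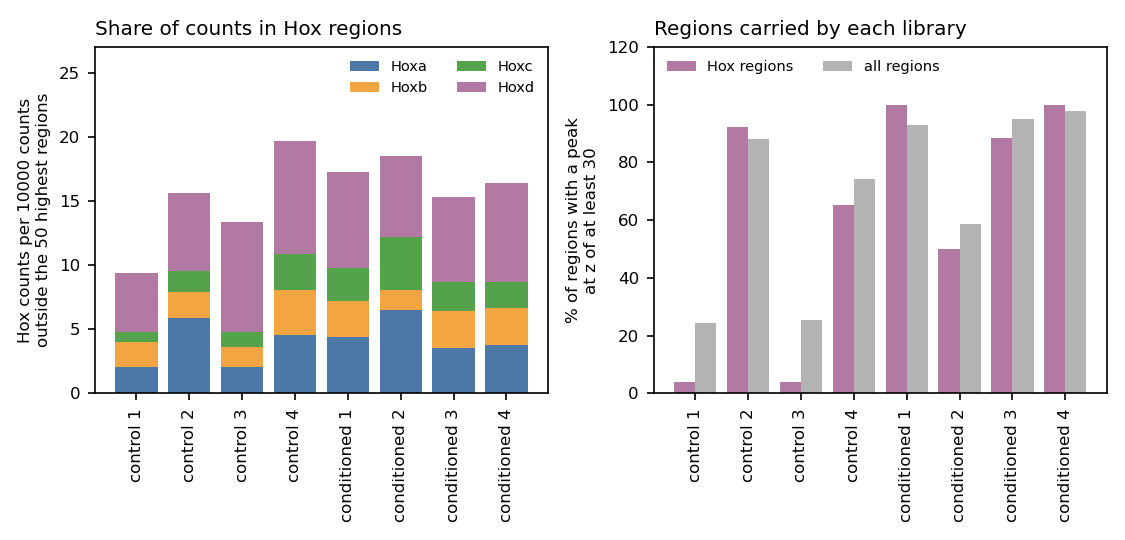
Left, Hox counts per 10000 counts outside the 50 highest regions in each library, stacked by cluster. Right, percent of the 26 Hox regions and of all 11304 regions that each library carries. Control replicates 1 and 3 carry 3.85% of the Hox regions, below their 24.3% and 25.5% of all regions, which are not matched for carrier number.

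The comparison of the groups asked whether the clusters opened or closed within 30 min of training. As a share that needs no scaling factor, the 26 regions held, of every 10000 counts outside the 50 highest regions, 9.40, 15.6, 13.4 and 19.7 (control replicates 1 to 4) and 17.3, 18.5, 15.3 and 16.4 (conditioned replicates 1 to 4). The 95% Clopper-Pearson intervals reached at most 0.515 to either side. The mean was 14.5 ± 4.29 for the controls and 16.9 ± 1.33 for the conditioned group (SD, n = 4 each), a difference of 2.35 (SE 2.25) with overlapping groups. Per cluster the means were 3.63 ± 1.90 and 4.56 ± 1.36 for Hoxa, 2.27 ± 0.847 and 2.52 ± 0.632 for Hoxb, 1.62 ± 0.868 and 2.76 ± 0.924 for Hoxc, and 7.01 ± 2.04 and 7.04 ± 0.707 for Hoxd (control and conditioned, SD, n = 4 each). Hoxd held the largest part of these counts in all 8 libraries except conditioned replicate 2, where Hoxa held slightly more.

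No Hox region passed the test. With edgeR's quasi-likelihood test, adjusted by Benjamini-Hochberg over all 11304 regions, 0 of 26 had an adjusted p below 0.05 (background 0%), and the adjusted p ran from 0.605 to 0.998. At unadjusted p below 0.05, 2 of 26 were higher after conditioning (background 1.76%) and 0 of 26 were lower (background 6.03%). DESeq2's Wald test, run as an alternative, called 1 of the 26, the Hoxc region at 27.4 kb (adjusted p = 0.0268), and 40 of all regions. Groups did not overlap in 2 of 26 regions, the same 2, both higher (background 1.5%), and 0 of 26 were lower in that way (background 0.902%). The log2 fold change (conditioned over control) was above 0 in 16 of 26 regions (background 46.4%). Its median was 0.20 over the Hox regions and -0.05 over all regions, and 0.33, 0.14, 0.48 and 0.08 in Hoxa, Hoxb, Hoxc and Hoxd. The fold change was smaller than its own SE in 16 of 26 regions, with SEs from 0.36 to 0.79. The Hox median fell to 0.05 without control replicate 1. Against control replicates 2 and 4 alone it was -0.12, with 11 of 26 regions above 0 and a median of 0.02 over all regions.

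**Figure D3:**
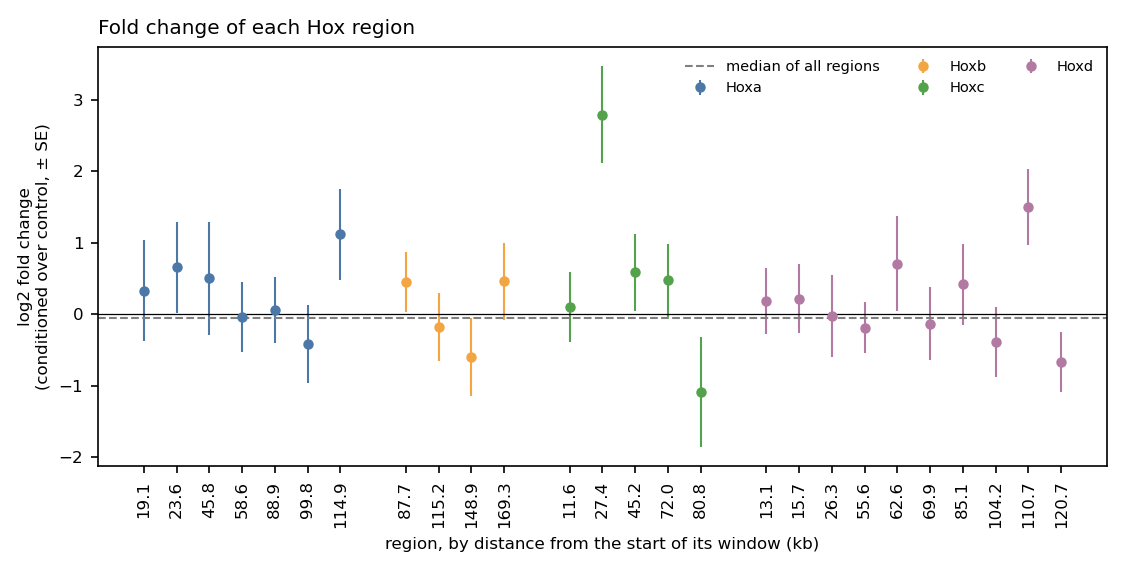
Log2 fold change (conditioned over control) with its SE for each of the 26 Hox regions, ordered within its cluster by distance from the window start in kb. The dashed line is the median of all regions (-0.05). Most SE bars reach 0, the Hoxc region at 27.4 kb (2.79) stands highest, and the Hoxc region at 80.8 kb (-1.09) lowest.

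In the Hoxa window, the region with the most reads and the highest mean z lay at 88.9 kb (chromosome 6, 52183883 to 52184883). It had 4.51, 8.33, 5.66 and 16.3 CPM in the controls (here and below in the order of replicates 1 to 4) and 11.9, 5.90, 9.93 and 8.66 CPM in the conditioned libraries. Control replicate 4 was highest and control replicate 1 lowest, and the log2 fold change was 0.06 (SE 0.46). At the far end of the window, on the side of Hoxa13, the region at 115 kb (52209883 to 52210368) had 2.10, 6.56, 2.30 and 4.98 CPM in controls and 3.06, 22.3, 5.36 and 4.10 CPM in conditioned libraries. One conditioned library, replicate 2, stood far above the rest. The log2 fold change was 1.12 (SE 0.64, edgeR adjusted p = 0.711), and 0.06 without that library. The first region of the window, at 19.1 kb on the side of Hoxa2 (52114104 to 52115233), had 1.09, 10.7, 1.60 and 3.08 CPM in controls and 2.73, 10.4, 5.75 and 2.13 CPM in conditioned libraries. Its highest values came from replicate 2 of either group, and its log2 fold change of 0.33 (SE 0.71) was -0.23 without conditioned replicate 2. The lowest fold change of the window belonged to the region at 99.8 kb (52194841 to 52195668), with 2.37, 4.75, 1.98 and 7.05 CPM in controls, 3.55, 2.11, 1.97 and 4.56 CPM in conditioned libraries. Controls 4 and 2 were highest, and the log2 fold change of -0.41 (SE 0.55) was -0.028 without control replicate 4. The 3 other regions had log2 fold changes of -0.04 to 0.66, and the groups overlapped in all 7.

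The Hoxb window, which spans genes from the tail and prostate gene Hoxb13 to the hindbrain gene Hoxb1, held no region whose groups separated. Its first region had the most reads. At 87.7 kb (chromosome 11, 96132681 to 96134088) the values were 5.74, 5.46, 3.63 and 6.55 CPM in controls and 7.76, 8.65, 6.79 and 6.17 CPM in conditioned libraries. Only conditioned replicate 4 lay within the range of the controls, below control replicate 4, and the log2 fold change was 0.46 (SE 0.42, edgeR adjusted p = 0.843). The region at 149 kb (96193932 to 96194650) had 7.25, 4.72, 5.29 and 12.1 CPM in controls and 7.44, 1.27, 5.12 and 5.66 CPM in conditioned libraries. Conditioned replicate 2 was the lowest and control replicate 4 the highest, and the log2 fold change was -0.59 (SE 0.55), -0.27 without control replicate 4 and -0.28 without conditioned replicate 2. At 169 kb (96214329 to 96214888), near the Hoxb1 end, the values were 1.64, 4.47, 4.59 and 5.69 CPM in controls and 4.18, 2.32, 8.17 and 7.93 CPM in conditioned libraries. This region had the highest mean z of the window (69.2), a mean over its 4 carriers alone, 3 of them conditioned. The libraries left out of that mean had z scores of 7.86, 19.5 and 26.0 (control replicates 1, 3 and 4) and 19.6 (conditioned replicate 2). The log2 fold change of this region was 0.46 (SE 0.54). Without control replicate 1 it was 0.19, without conditioned replicates 3 or 4 it was 0.23 or 0.25, and without conditioned replicate 2 it was 0.72. The remaining region, at 115 kb, had a log2 fold change of -0.18 (SE 0.48).

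In the Hoxc window, the region at 27.4 kb (chromosome 15, 102767355 to 102767919), on the side of the genes Hoxc13 and Hoxc12, separated the groups. It had 1.23, 2.58, 0.641 and 2.12 CPM in controls and 3.04, 28.2, 9.09 and 6.05 CPM in conditioned libraries. All 4 conditioned libraries lay above all 4 controls, with conditioned replicate 2 far above and conditioned replicate 1 close to control replicate 2. The read counts behind these values were 27, 238, 12 and 126 in controls and 246, 1242, 1051 and 1013 in conditioned libraries. The highest peak in the region had z scores of 6.56, 36.1, 5.47 and 23.1 in controls and 36.3, 128, 47.0 and 84.8 in conditioned libraries, where control replicate 2 and conditioned replicate 1 were nearly level. These z scores put the region on the list, through 1 control and 4 conditioned carriers, and are no separate evidence of a difference. The separation in reads, from the same libraries, is not independent of that selection either. The log2 fold change was 2.79 (SE 0.68, edgeR unadjusted p = 0.000889, adjusted p = 0.605), 1.86 without conditioned replicate 2, and 2.29 against control replicates 2 and 4 alone. This difference was known when the windows were chosen.

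The neighbours of that Hoxc region did not separate the groups. Toward the window start, the region at 11.6 kb (102751646 to 102752703) had 2.14, 5.21, 6.09 and 4.31 CPM in controls and 7.31, 4.32, 3.58 and 3.90 CPM in conditioned libraries. Conditioned replicate 1 was the highest there and control replicate 1 the lowest, and the log2 fold change was 0.11 (SE 0.49). The regions at 45.2 and 72.0 kb had log2 fold changes of 0.59 (SE 0.54) and 0.48 (SE 0.51). The last region, at 80.8 kb (102820801 to 102821296), had 0.911, 1.18, 2.03 and 14.9 CPM in controls and 2.62, 1.59, 2.90 and 1.89 CPM in conditioned libraries. Control replicate 4 alone stood high. The log2 fold change of -1.09 (SE 0.77) was 0.70 without that library.

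In the Hoxd window, the 2 regions with the most reads had overlapping groups. At 55.6 kb (chromosome 2, 74535571 to 74536959), the highest mean z of all Hox regions (74.6), the values were 11.1, 15.0, 15.5 and 17.1 CPM in controls and 14.2, 9.18, 13.0 and 15.0 CPM in conditioned libraries. Control replicate 1, the lowest library in most Hox regions, was here within the range of the conditioned group, and the log2 fold change was -0.19 (SE 0.36). At 121 kb (74600659 to 74601785), on the side of Hoxd1, the values were 12.4, 10.4, 34.2 and 18.1 CPM in controls and 10.8, 10.1, 11.5 and 14.6 CPM in conditioned libraries. Control replicate 3 stood above all others, and the log2 fold change of -0.67 (SE 0.42, edgeR adjusted p = 0.735) was -0.24 without it. The same library was also highest at 104 kb, with 21.1 CPM against 3.70 to 12.3 CPM in the other 7 libraries.

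The other region with groups that did not overlap lay in Hoxd at 111 kb (74590726 to 74591185). It had 0.592, 1.63, 1.12 and 1.72 CPM in controls and 3.22, 3.25, 2.69 and 5.34 CPM in conditioned libraries. Conditioned replicate 3, the lowest of its group, was above control replicate 4, the highest of the controls. The counts were 13, 151, 21 and 102 in controls and 261, 143, 311 and 895 in conditioned libraries. The log2 fold change was 1.50 (SE 0.53, edgeR unadjusted p = 0.0127, adjusted p = 0.605), between 1.25 and 1.65 when any library was left out, and 1.10 against control replicates 2 and 4 alone. In height the groups overlapped. The highest peak had a z score of 30.6, 10.1 and 21.5 in control replicates 2 to 4, with no listed peak in control replicate 1, and of 40.1, 21.1, 47.2 and 77.1 in conditioned replicates 1 to 4. This region was listed through 1 control and 3 conditioned carriers, so its separation in reads and its unadjusted p are not independent of that selection. The first region of the window, at 13.1 kb on the side of Hoxd13 (74493076 to 74494471), had 2.23, 5.81, 5.18 and 5.50 CPM in controls and 5.17, 6.22, 5.20 and 4.81 CPM in conditioned libraries, with control replicate 1 alone low and a log2 fold change of 0.19 (SE 0.46). The 6 other Hoxd regions had log2 fold changes from -0.38 to 0.70, with overlapping groups.

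**Figure D4:**
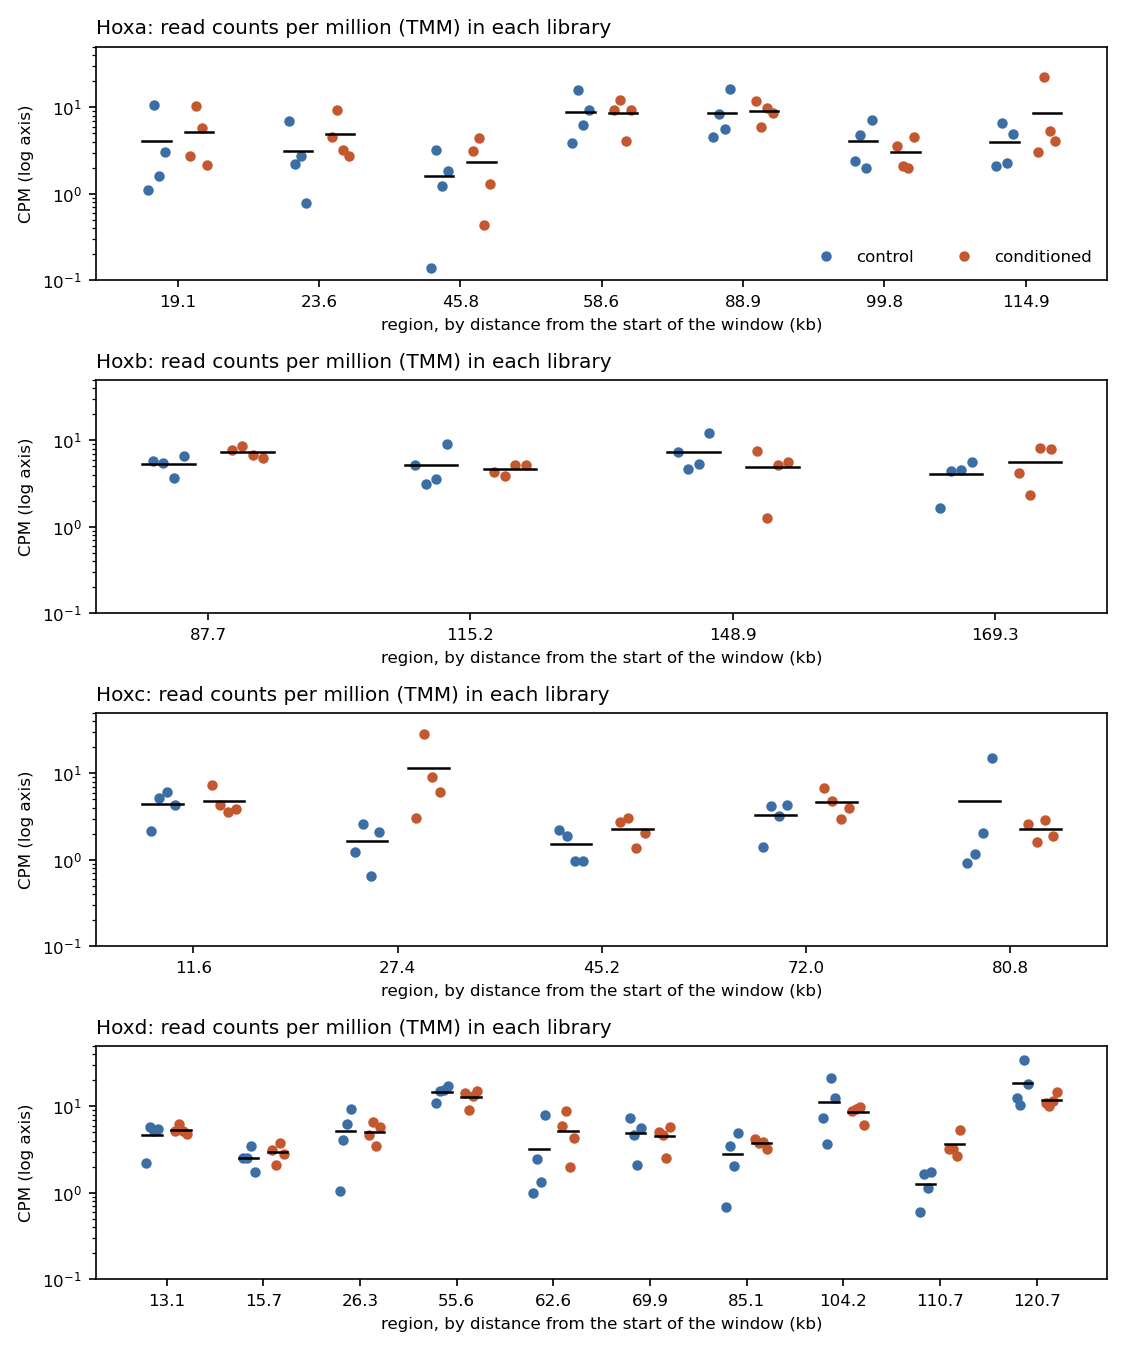
CPM (TMM-scaled, log axis) of each Hox region in each library, with 4 control (blue) and 4 conditioned (orange) points and a black bar at each group mean. The groups do not overlap at 27.4 kb in Hoxc and at 111 kb in Hoxd, and they overlap in the other 24 regions.

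Relative to each library's own autosomal average, strong peaks separated the groups in the Hoxa window. Per 100000 listed peaks they did not, and listed peaks of any height separated the groups in no window. Listed peaks per 100000 peaks of the library had control and conditioned means of 5.48 ± 0.702 and 6.35 ± 1.73 for Hoxa, 9.58 ± 0.944 and 8.91 ± 0.148 for Hoxb, 6.18 ± 0.930 and 6.55 ± 1.12 for Hoxc, and 6.38 ± 0.970 and 7.48 ± 1.54 for Hoxd (SD, n = 4 each). The differences of 0.87 (SE 0.93), -0.67 (SE 0.48), 0.37 (SE 0.73) and 1.10 (SE 0.91) were each smaller than the larger SD of their groups. In Hoxa, strong peaks (z of 30 or more) numbered 0, 10, 0 and 5 in controls and 10, 6, 13 and 14 in conditioned libraries. Per 100000 listed peaks this was 0, 1.36, 0 and 0.970 in controls and 1.23, 1.58, 1.38 and 1.42 in conditioned libraries. On that scale the groups overlapped, with conditioned replicate 1 below control replicate 2. In Hoxd strong peaks numbered 1, 11, 1 and 10 in controls and 14, 5, 15 and 14 in conditioned libraries. In Hoxb the numbers were 2, 8, 2 and 4 against 6, 3, 7 and 10, and in Hoxc 0, 8, 3 and 5 against 8, 3, 10 and 11. Control replicates 1 and 3 had the lowest numbers among the controls in each window, and conditioned replicate 2 the lowest among the conditioned.

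Each library's own autosomal average is the base for the following ratios of strong peaks per Mb. Their comparison between the groups was not planned in advance. In Hoxa the ratio was 0, 3.26, 0 and 2.88 in controls and 5.31, 4.37, 3.77 and 5.29 in conditioned libraries. All 4 conditioned libraries lay above all 4 controls, also above control replicates 2 and 4. The means were 1.54 ± 1.78 and 4.69 ± 0.752 (SD, n = 4 each), a difference of 3.15 (SE 0.97), and 1.61 against control replicates 2 and 4 alone. Of 19312 autosomal stretches of 125 kb, 1.47% separated the groups in this direction and 1.18% in the other. All stretches count here, and one without a strong peak in some conditioned library cannot separate the groups in this direction. The share among stretches as rich in strong peaks as Hoxa was not determined. In Hoxd the ratio was 1.37, 3.32, 0.902 and 5.34 in controls and 6.89, 3.37, 4.03 and 4.90 in conditioned libraries, a difference of 2.06 (SE 1.27). It was 0, 2.42, 2.71 and 2.67 against 3.94, 2.02, 2.69 and 3.85 in Hoxc, a difference of 1.18 (SE 0.80). Hoxb had 1.95, 1.72, 1.28 and 1.52 against 2.10, 1.44, 1.34 and 2.49, a difference of 0.22 (SE 0.31). The groups overlapped in these 3 windows. Of all stretches of 135 kb, again with no minimum of strong peaks, 1.58% separated the groups with conditioned libraries higher and 1.11% with them lower. Of those of 190 kb it was 1.47% and 1.31%. The zeros of control replicates 1 and 3 rest on autosomal averages of 5.41 and 8.21 strong peaks per Mb, the lowest of the 8 libraries, and the part of depth in these ratios was not tested. Of the 26 regions, 24 had more conditioned than control carriers, 2 had equal numbers and 0 had more control carriers, against 81.0%, 16.9% and 2.15% of all regions, so this split is shared with the whole list. The part of depth in it was not tested.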

How the data were processed

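Sono-seq libraries of 8 mice (4 control, 4 conditioned, grouped by their titles) were analysed. Bowtie2 (no version named) and mm9 are given per the submitters' processing notes, while the caller, the counter and any read filter were not given in the sources used here. The authors deposited raw read counts for 11304 regions in 8 columns (0 columns unused). Each region also came with the authors' mean z score and its carriers, per the file headers, and each library with a list of peaks and their z score (scaling not stated). Carriers recounted from these lists (z of 30 or more, any overlap) matched the deposited ones in all 11304 regions. Starts and ends are printed as deposited, and a peak's length includes its last step of 50 bp. The labels describe separate animals.

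The quasi-likelihood test of edgeR 4.0.16 (R 4.3.3) was fitted to the counts of all regions, with TMM factors and group as the only term. It is two-sided, with Benjamini-Hochberg adjustment over all regions and a threshold of 0.05. A filter on low counts (minimum 10, total of 15) left out 0 regions. TMM-scaled CPM compares a region with the bulk of regions. The SE was taken as the fold change over the square root of F. Windows were intersected at 1 bp in Python 3.11.15 with pandas 2.3.3. Values summed over a window carry no p. Regions named are, in each window, those with the highest mean CPM, mean z and fold change, the lowest fold change, the smallest p and the first and last position. Alternatives were other scalings, no filter, DESeq2 1.42.0, limma 3.58.1 (voom), a replicate block, each library left out, no 50 highest regions, other peak minima and bins, and, added after seeing the data, control replicates 2 and 4 alone. The members and lists were chosen with earlier results of these data known. Promoter sequences are from RefSeq (GRCm38.p6), matched by symbol.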

Additional observations from a re-analysis of the deposited data

Results flagged for a closer look

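Groups of 4 libraries in which the highest or lowest stood apart from its neighbour by most of the group's range numbered 7 of 102 examined. Chance gives about 1 in 20 for independent values, and these groups share the same 8 libraries. Conditioned replicate 2 stood apart in 3 of them. In the Hoxa region at 52209883 it had 22.3 CPM, against 3.06 to 5.36 CPM in the other conditioned libraries. It had 5 peaks at z of at least 30 in the Hoxd window, against 14 to 15, and 1.58 of every 10000 counts outside the 50 highest regions in Hoxb, against 2.74 to 2.90. Control replicate 4 had 14.9 CPM in the Hoxc region at 102820801, against 0.911 to 2.03 CPM in the other controls. Peaks of conditioned replicate 3 covered 6.52% of the Hoxa window, against 2.92% to 3.40%, and those of control replicate 2 covered 3.26% of the Hoxc window, against 1.81% to 1.96%. In Hoxc the ratio of strong peaks (z of 30 or more) to the library's autosomal average was 0 in control replicate 1, against 2.42 to 2.71 in the other controls.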

How the results depend on the processing

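Without any one library, 0 regions of the whole table passed in every fit (0 to 0), the Hox regions at unadjusted p below 0.05 numbered 2 to 3, and the median log2 fold change ran from 0.05 to 0.36 over all Hox regions, from -0.02 to 0.59 in Hoxa, -0.03 to 0.37 in Hoxb, 0.22 to 0.64 in Hoxc and 0.02 to 0.17 in Hoxd. With region totals alone, 6 regions of the whole table and 0 Hox regions passed, 4 Hox regions had an unadjusted p below 0.05, and the median log2 fold change was 0.73 over the Hox regions, beside 0.75 over all regions, and 0.91 in Hoxb, 0.99 in Hoxc and 0.76 in Hoxd. That scaling put 25 of 26 Hox regions and 88.5% of all regions above 0. It turned the regions at 52194841 to 0.21, at 96193932 to 0.23, at 74600659 to 0.35 and at 74535571 to 0.58. DESeq2's Wald test called 40 regions, with the Hoxc region at 102767355 at 2.79 (adjusted p = 0.0268); over the other fits of that region the adjusted p ran from 0.131 to 0.989. In limma voom the region at 52114104 had -0.031. With a replicate block 0 regions passed (smallest adjusted p = 0.446), 2 Hox regions had an unadjusted p below 0.05 and the Hox median was 0.27. Titles give both groups the replicate numbers 1 to 4 and the same further numbers (1, 4, 6 and 9) without saying what these mark. Deviations of same-numbered libraries correlated at 0.165, 0.043, -0.060 and 0.269, and 1 of 4 controls correlated best with its own number, so the data do not settle whether they are pairs. They were treated as unpaired, and the block changed no call. Against control replicates 2 and 4 alone the Hoxa median was -0.41, and the regions at 52183883, 52114104, 102751646 and 74493076 had -0.45, -0.41, -0.0094 and -0.10. Leaving out 1 library gave -0.16 to 0.54 at 52183883, -0.18 to 0.28 at 102751646, -0.051 to 0.31 at 74493076, -1.44 to 0.70 at 102820801 and -0.23 to 1.43 at 52114104. The cause of these turns was not tested. The difference in listed peaks per 100000 ran without 1 library from 0.0881 to 1.31 in Hoxa, -0.943 to -0.368 in Hoxb, -0.177 to 0.667 in Hoxc and 0.426 to 1.67 in Hoxd. For strong peaks relative to the library's autosomes the difference ran without 1 library from 2.64 to 3.73 in Hoxa, 0.00806 to 0.392 in Hoxb, 0.527 to 1.54 in Hoxc and 1.37 to 2.93 in Hoxd, and in Hoxa it was 1.61 against control replicates 2 and 4 alone. Listed peaks per 100000 in Hoxb differed by 0.239 at z of at least 10 and 0.192 at z of at least 30. Unscaled, the differences were 11.5, 7.50, 9.50 and 15.0 peaks in Hoxa to Hoxd. Bins with a peak in all 8 libraries made up 47.0% at 5 kb and, being longer, 81.7% at 10 kb. The count filter removed no region and tests nothing.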

Other observations

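Weak peaks were spread along the windows also where no region was listed. Of the 117 bins of 5 kb, 116 held a listed peak of some library, 55 held a peak in all 8 libraries, and 54 held no peak at z of at least 30. The bin without any listed peak lay in Hoxd at 125 kb, next to the region at 121 kb. The most peaks of a bin were found in Hoxd at 15.0 kb, with 34 over the 8 libraries, and in Hoxc at 25.0 kb, with 31. Bins in which a region starts held a mean of 2.21 peaks per library, the others 1.56, which follows in part from the list's own rule. With bins of 10 kb the means were 3.46 and 3.24, and in Hoxb alone the order turned (3.34 and 3.51). In the stretch of Hoxb without a region, the bins at 45.0 and 55.0 kb each held 25 peaks from all 8 libraries, as many as the richest bin of Hoxa, yet 0 and 1 of the libraries had a peak at z of at least 30 there.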
